A study of Homo sapiens with 12 samples.

Results

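The genes described here are 33 glycolysis and hypoxia genes, chosen by symbol from a list of glucose transporters, glycolytic enzymes with their regulators, and targets of the hypoxia-inducible factors (HIF). Each symbol matched 1 row of the 60669 gene identifiers counted. The list held 21 genes of glucose transport and glycolysis and 12 other HIF targets. After a filter on low counts 31 of the 33 could be tested among 16393 genes; ADM and EGLN3 did not pass it.

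Polyadenylated RNA came from HT1080 cells, a human fibrosarcoma line, and was counted per gene in 12 libraries. All cells carried dCas9, a Cas9 without cutting activity, under blasticidin selection, and 1 guide RNA under puromycin selection. The guide was directed either at an LTR8B element, a retroviral long terminal repeat in the first intron of SP140, or at GFP as the control. Each line was left untreated or received IFNB (interferon beta) for 4 h at a dose of 10 U/mL. The groups were GFP untreated (2 libraries), GFP IFNB (2 libraries), LTR8B untreated (4 libraries) and LTR8B IFNB (4 libraries). No hypoxia treatment is named in the labels, and the cells were grown in 5% CO2. Only 1 guide per target was used, and nothing says that the libraries came from separate cultures, so p-values measure the spread between these libraries, which may be technical.

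Total counts ran from 12404270 to 28801579 per library. The targeted gene SP140 was at 29.8 to 32.0 CPM (counts per 1e+06 counts, scaled by TMM) in the 4 GFP libraries and at 0.515 to 1.84 CPM in the 8 LTR8B libraries, and the interferon-stimulated gene IFIT1 was at 7.35 to 11.9 CPM without and at 2303 to 3016 CPM with IFNB, so both labels were borne out in every library. Of 8 mesenchymal markers 6 reached a mean of 1 CPM, with VIM at 3464 CPM, whereas COL1A2 (0.494 CPM) and THY1 (0.127 CPM) did not. Of 6 epithelial markers 2 reached it, KRT8 at 264.6 CPM and KRT18 at 140.2 CPM, whereas EPCAM (0.0732 CPM) and CDH1 (0.0785 CPM) were near 0. Of 4 endothelial markers 2 reached it, with PECAM1 highest at 7.70 CPM. Of 4 neural markers 2 did, TUBB3 at 118.1 CPM and MAP2 at 15.2 CPM. Of the 6 haematopoietic markers LCP1 alone reached 1 CPM, at 976 CPM.

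Glycolysis turns glucose into pyruvate. Transporters (SLC2A1, SLC2A3) admit the sugar, hexokinases (HK1, HK2) trap it as glucose 6-phosphate, and phosphofructokinase sets the flux into the lower chain of enzymes, under control of the PFKFB enzymes. In low oxygen the prolyl hydroxylases (EGLN1, EGLN3) no longer mark HIF alpha subunits for degradation by VHL, and HIF then binds short RCGTG elements in many of these genes; cancer cells often keep the pathway high in normal oxygen as well. Interferon beta acts through STAT and IRF factors on other elements, and type I interferons are known to alter glycolysis in some immune cells.

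HK2 was the member whose level passed the test, so the bases before its second RefSeq start are shown (RefSeq, GRCh38.p14). Capitals mark the hypoxia element RCGTG in its 2 forms, ACGTG and GCGTG, on either strand, so that CACGTG reads as ACGTG on both strands. HK2 (ENSG00000159399.10) lies on hg38 at chr2:74833981-74893359, plus strand, and this stretch lies in the first intron of an annotated HK2 transcript, just upstream of the second start at 74835170.
HK2, bases before the second start (chr2:74834920-74835169, plus strand): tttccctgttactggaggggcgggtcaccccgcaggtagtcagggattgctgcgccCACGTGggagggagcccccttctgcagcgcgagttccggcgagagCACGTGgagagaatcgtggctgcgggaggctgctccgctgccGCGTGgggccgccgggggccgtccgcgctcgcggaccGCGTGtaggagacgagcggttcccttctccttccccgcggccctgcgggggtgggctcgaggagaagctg
The 250 bases held 6 matches to the 2 forms and none to the interferon element GAAANNGAAA or the gamma-activated site TTCNNNGAA. The window at the first start, 74834127, held 3 matches to the hypoxia forms and again none to either interferon motif. Counts were per gene, so the share of HK2 RNA from each start was not measured.

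Short windows of 29 bases from other members with the ACGTG form show the same letters in genes that did not pass the edgeR test, beside the HK2 element nearest its first start. Each is read 5′ to 3′ along the gene, with the match in capitals; CACGT is the form on the opposite strand.
HK2 (chr2:74834067-74834095, plus strand): aatgggcgtgcgCACGTcactgatccgga
PFKFB3 (chr10:6202813-6202841, plus strand): accctcctccccACGTGgaagggggctgg
PGK1 (chrX:78104034-78104062, plus strand): gcggcgtgccggACGTGacaaacggaagc
LDHA (chr11:18394465-18394493, plus strand): agcccgactcacACGTGggttcccgcacg
CA9 (chr9:35673898-35673926, plus strand): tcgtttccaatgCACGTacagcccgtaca
ANKRD37 (chr4:185396686-185396714, plus strand): cagtgtttgtgtACGTGcggccgtggcgg
P4HA1 (chr10:73096936-73096964, minus strand): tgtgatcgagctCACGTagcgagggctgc
EGLN1 (chr1:231422284-231422312, minus strand): gggccgtggtgtACGTGcagagcgcgcag
Windows from 250 bases before to 50 bases after a start were held for 29 of the 33 members, with 52 windows in all. VEGFA, NDRG1, BNIP3L and SLC2A3 had none in the table. ACGTG was in 42.3% of the members' windows, against 21.4% of all 35116 windows and 25.0% of those of tested genes. GCGTG was in 38.5% of members' windows, against 36.5% of all and 47.3% of tested genes' windows. The palindrome CACGTG, which overlaps ACGTG, was in 15.4% against 7.26% of all windows and 9.13% of tested genes' windows. The interferon element was in 3.85% of members' windows, against 3.57% of all and 3.02% of tested genes' windows. Both windows were of PFKM and overlap over the same match. The gamma-activated site was in 3.85%, in HK1 and PDK1, against 7.66% of all and 6.41% of tested genes' windows. Windows of nearby starts of the same gene overlap, so the windows are not independent. Both strands were searched for every motif. Median GC content was 68.8% in the members' windows, 58.7% in all windows and 64.3% in those of tested genes. The part of base composition in these shares was not tested.

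Levels per exon length (RPKM, from GENCODE release 29 exon lengths) placed the lower chain of glycolysis far above the rest. GAPDH, which oxidises glyceraldehyde 3-phosphate, was the highest member at 1519 ± 104 RPKM (SD, n = 12 libraries). ENO1, the main enolase, followed at 496.7 ± 24.4 RPKM, and PKM, pyruvate kinase, at 348.9 ± 20.6 RPKM. None of these 3 ranges overlapped the next. ALDOA (aldolase), LDHA (which reduces pyruvate to lactate), PGAM1 (phosphoglycerate mutase) and TPI1 (triose-phosphate isomerase) lay between 198.3 and 279.1 RPKM, and each overlapped its neighbour in the order. PGK1, phosphoglycerate kinase, stood apart below them at 146.2 ± 4.29 RPKM.

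The entry steps were lower. HK1, the widely expressed hexokinase, was at 71.9 ± 3.42 RPKM and HK2, the inducible form, at 18.0 ± 3.22 RPKM. SLC2A1, the GLUT1 transporter, was at 32.6 ± 2.51 RPKM, above SLC2A3, the GLUT3 transporter, at 10.1 ± 0.662 RPKM. Of the phosphofructokinase subunits the platelet form PFKP was highest at 54.0 ± 3.20 RPKM, above PFKM (14.6 ± 0.802 RPKM) and PFKL (9.11 ± 0.912 RPKM), and the ranges of PFKM and PFKL did not overlap. PFKFB3, which makes the activator fructose 2,6-bisphosphate, was at 16.4 ± 1.36 RPKM, and its relative PFKFB4 at 3.71 ± 0.326 RPKM. The tissue-restricted forms ENO2 (5.70 ± 0.356 RPKM) and ALDOC (0.738 ± 0.150 RPKM) were far below ENO1 and ALDOA. PDK1, the kinase that shuts pyruvate dehydrogenase, was at 2.37 ± 0.153 RPKM.

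Among the other HIF targets NDRG1, a stress-regulated gene of growth arrest, was highest at 36.7 ± 3.07 RPKM. The mitophagy receptors BNIP3L (21.1 ± 2.42 RPKM) and BNIP3 (17.5 ± 1.00 RPKM), the collagen prolyl hydroxylase subunit P4HA1 (15.7 ± 1.45 RPKM), the angiogenic factor VEGFA (14.8 ± 2.42 RPKM) and the oxygen sensor EGLN1 (11.0 ± 0.952 RPKM) were in the middle of the order. CA9, a carbonic anhydrase at the cell surface (6.24 ± 2.18 RPKM), the histone demethylase KDM3A (3.80 ± 0.159 RPKM), P4HA2 (2.81 ± 0.119 RPKM) and ANKRD37 (0.992 ± 0.180 RPKM) were lower. Of the 32 neighbouring pairs in the whole order 18 had overlapping ranges over libraries. Exon length is that of all annotated exons merged, which lowers the RPKM of genes with exons unused in these cells.

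**Figure D1:**
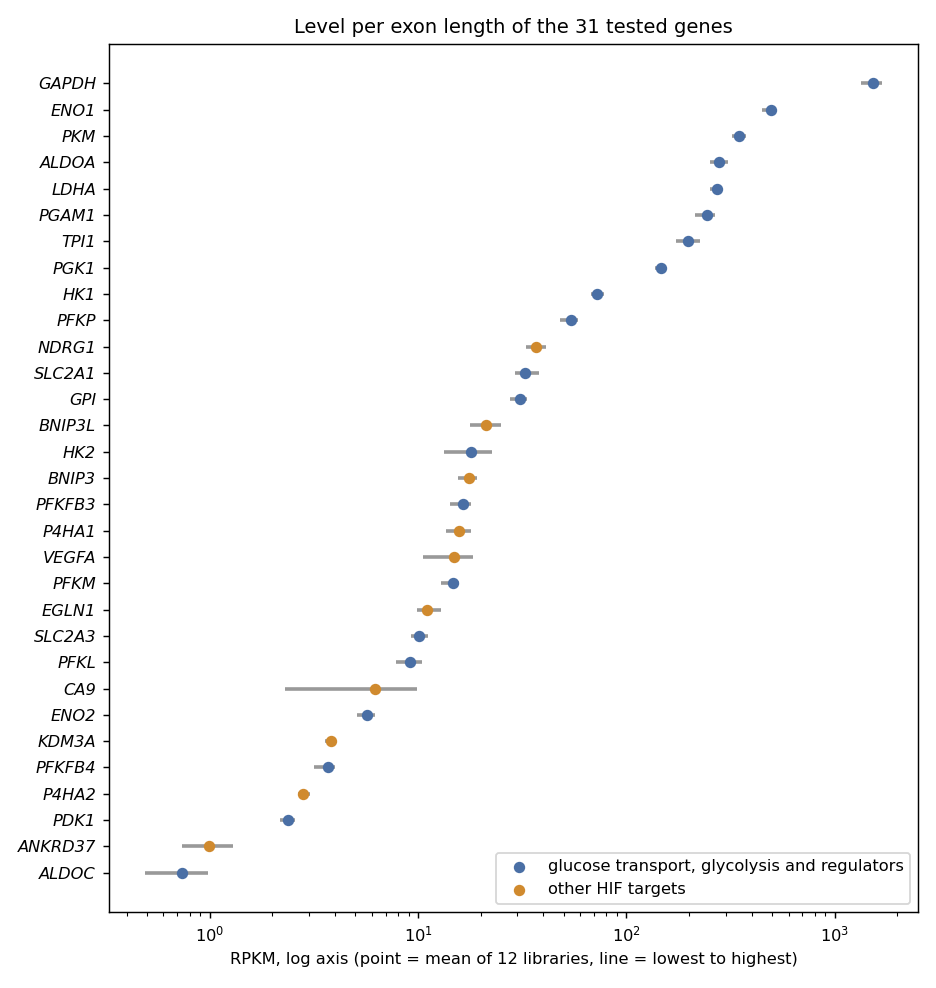
Level per exon length of the 31 tested genes. The x axis is RPKM on a log scale, each point is the mean of 12 libraries and each line runs from the lowest to the highest library; the lower-chain enzymes GAPDH to PGK1 fill the top 8 places, and CA9 and HK2 have wide lines.

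ADM and EGLN3 were at the limit of detection. ADM, the vasodilator adrenomedullin, had 0 counts in 8 of 12 libraries and at most 7 counts. EGLN3, the HIF hydroxylase most often induced by hypoxia, had at most 3 counts in a library and 15 in all. For a library without any count, 3 counts were taken as the limit. Such a library allows a level of at most 0.115 to 0.242 CPM, by its depth and for counting error only. No difference between groups was detectable for either gene at this depth.

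With IFNB, HK2 rose in both lines. HK2 stood at 86.3 and 80.6 CPM in the GFP untreated libraries and at 128.8 and 107.7 CPM in the GFP IFNB libraries. In LTR8B cells it stood at 98.0, 98.0, 90.9 and 103.3 CPM without IFNB, and at 123.4, 134.1, 122.8 and 137.9 CPM after it. All 6 treated libraries were above all 6 untreated ones. The change was 0.50 ± 0.09 on the log2 scale (SE, 1.42-fold) in GFP cells, with an edgeR adjusted p of 0.00276, and 0.41 ± 0.07 (1.33-fold) in LTR8B cells, with an adjusted p of 4.58e-04. The mean of both was 0.46 ± 0.06 (1.37-fold, 95% interval 1.26 to 1.49), with an adjusted p of 2.11e-05. In bulk RNA, more RNA per cell and more cells with the RNA cannot be told apart. The rise in GFP cells lost its call without GFP untreated replicate 2 (0.44 on the log2 scale, adjusted p = 0.0861) and without GFP IFNB replicate 1 (0.36, adjusted p = 0.0842), while that in LTR8B cells and the mean kept theirs under each of the 17 alternatives run.

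HK2 was 1 of 31 members called in each of these IFNB comparisons. Over all tested genes 3.2% were called in GFP cells, 4.5% in LTR8B cells and 6.29% for the mean of both lines, with 5.28% higher for that mean. A count of 1 of 31 is therefore near the background, and the finding is about HK2 rather than about the list. The median difference of the 31 members was -0.01 on the log2 scale for the mean response, and that of all tested genes -0.01. HK2 was also the 1 member with no overlap between treated and untreated libraries in the same direction in both lines, against 6.61% of all genes.

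The RPKM ratio of HK2 to HK1 moved with it. It was 0.202 and 0.190 in GFP untreated libraries and 0.301 and 0.255 in GFP IFNB libraries. In LTR8B cells it ranged from 0.219 to 0.232 untreated and from 0.279 to 0.299 with IFNB. HK1 itself changed by 0.01 ± 0.05 on the log2 scale for the mean response (adjusted p = 0.929). HK1 thus remained the more abundant hexokinase RNA per length in every library.

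HK2-DT (ENSG00000272711.1), a noncoding gene on the minus strand that starts head to head with HK2, was named after its values were seen. It shares 7 bases with the HK2 gene. HK2-DT had 11.1 and 11.6 CPM in GFP untreated and 16.3 and 13.9 CPM in GFP IFNB libraries, and 9.93 to 11.0 CPM in LTR8B untreated and 11.1 to 13.9 CPM in LTR8B IFNB libraries. The groups did not overlap in either line, but the gap in LTR8B cells was narrow, from 10.97 to 11.07 CPM. HK2-DT was called in neither line alone, with an edgeR adjusted p of 0.120 in GFP and 0.157 in LTR8B cells. Its mean response was 0.34 ± 0.08 on the log2 scale, with an edgeR adjusted p of 0.0113, and the call was lost without GFP untreated replicate 1 (adjusted p = 0.0788) and without GFP IFNB replicate 1 (adjusted p = 0.0942).

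**Figure D2:**
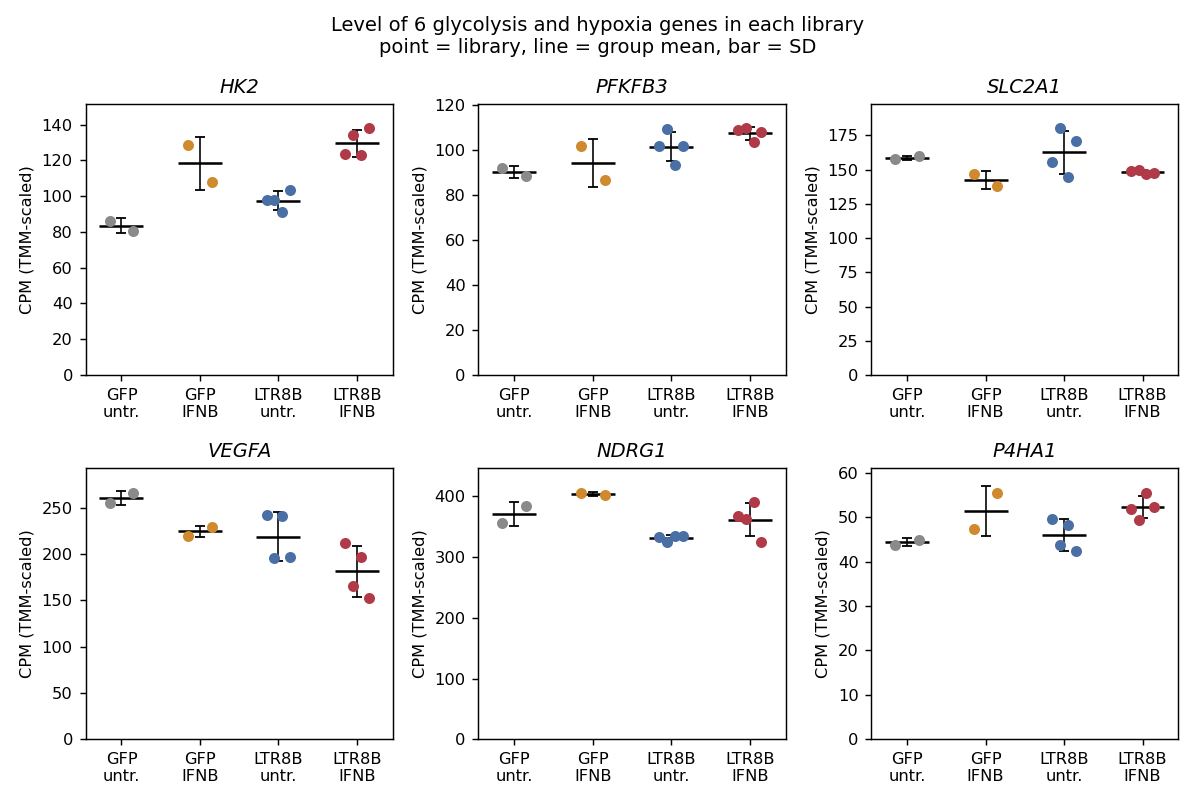
TMM-scaled CPM of 6 genes in each of the 12 libraries, with the y axis from 0; points are libraries, lines group means and bars the SD. HK2 is higher in every IFNB library than in every untreated one, whereas the groups overlap or differ by less for the other 5 genes.

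No other member passed the test for IFNB. P4HA1, a subunit of the enzyme that hydroxylates collagen prolines, came nearest. Its CPM was 43.7 and 44.9 in GFP untreated and 47.3 and 55.3 in GFP IFNB libraries, and 42.3 to 49.7 in LTR8B untreated and 49.4 to 55.5 in LTR8B IFNB libraries. The ranges touched in LTR8B cells, where the lowest treated library (49.4) lay below the highest untreated one (49.7). The mean response was 0.20 ± 0.06 on the log2 scale, with an edgeR adjusted p of 0.0708. With a block on replicate number P4HA1 was called. It crossed the threshold without GFP IFNB replicate 1 (adjusted p = 0.0293) and in DESeq2 (adjusted p = 0.0477).

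VEGFA, the endothelial growth factor, was lower with IFNB in both lines, short of the threshold. It had 255.0 and 266.2 CPM in GFP untreated and 220.0 and 228.9 CPM in GFP IFNB libraries. In LTR8B cells it had 241.7, 195.3, 241.4 and 196.5 CPM untreated and 211.8, 165.1, 196.8 and 152.1 CPM with IFNB. The groups did not overlap in GFP cells and overlapped in LTR8B cells, where replicates 2 and 4 were the low ones under both treatments. In each line every IFNB library was below the untreated library of the same replicate number. The mean response was -0.24 ± 0.09 on the log2 scale, with an edgeR adjusted p of 0.151. VEGFA passed the threshold under 3 of the 17 alternatives. It did so without LTR8B IFNB replicate 1 (-0.29, adjusted p = 0.0358) and without the low-count filter (-0.25, adjusted p = 4.40e-04). The third was a block on replicate number, and the main fit did not take these numbers as pairs.

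SLC2A1 was at 157.6 and 159.6 CPM in GFP untreated and at 146.9 and 137.9 CPM in GFP IFNB libraries. In LTR8B cells it spanned 144.6 to 180.2 CPM untreated and 146.9 to 149.6 CPM with IFNB, so that those groups overlapped. The mean response of this transporter was -0.14 ± 0.05 on the log2 scale, with an edgeR adjusted p of 0.155, and it passed the threshold without LTR8B untreated replicate 3 (-0.17, adjusted p = 0.0368), the lowest of its group. NDRG1 was at 0.12 ± 0.05 (adjusted p = 0.182) and PFKFB3 at 0.07 ± 0.05 (adjusted p = 0.554).

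The other members were close to 0. Of the 8 genes from aldolase to enolase none was called, and their mean responses lay between -0.08 and 0.09 on the log2 scale. The same held for the 5 phosphofructokinase genes, between -0.04 and 0.09, and for PKM, LDHA and PDK1, between -0.01 and 0.06. Among the members not called with a mean of at least 10 CPM, 27 of 28 had a 95% interval of the mean response within 1.5-fold in either direction, so a larger change is outside those intervals. The exception was CA9, whose interval reached 1.80-fold.

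**Figure D3:**
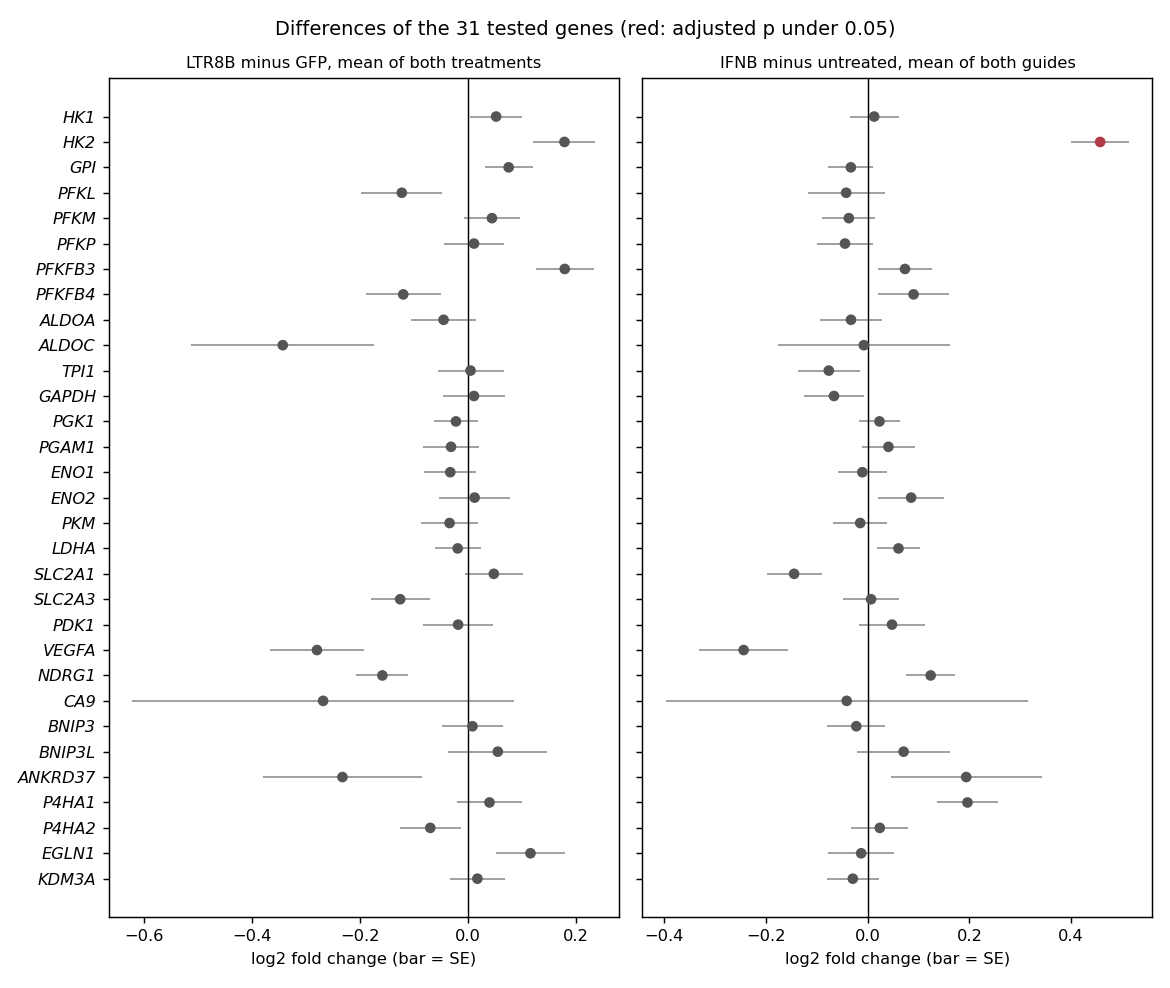
Log2 fold changes with SE for the 31 tested genes: LTR8B minus GFP as the mean of both treatments on the left, IFNB minus untreated as the mean of both lines on the right. HK2 on the right, at 0.46, is the single point past the threshold (red), and CA9 has the widest bars.

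The guide comparison asked whether cells with the LTR8B guide, in which SP140 was low, differed from control cells in these genes. No member of 31 passed the edgeR test in untreated cells, with IFNB or for the mean of both treatments. Over all tested genes 0.36% were called untreated, 0.354% with IFNB and 2.14% for the mean, so a count of 0 of 31 is near the background in each. In untreated cells and with IFNB 4 of 31 members each had an unadjusted p under 0.05, against 11.2% and 9.47% of all tested genes, and DESeq2 and limma-voom called 0 members in either. At an unadjusted p under 0.05 there were 5 of 31 members for the mean, against 15.8% of all genes. The median difference of the members for the mean was -0.02 on the log2 scale, and that of all genes 0.00. DESeq2 called 3 members for the mean (PFKFB3, NDRG1 and VEGFA), against 3.85% of the genes it tested. Among members not called with a mean of at least 10 CPM, 28 of 29 intervals of the mean difference lay within 1.5-fold, again with CA9 as the exception (2.11-fold).

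The members that came nearest were PFKFB3, NDRG1 and VEGFA, which were also the 3 whose libraries did not overlap between guides, in the same direction, under both treatments. Over all tested genes 5.6% had no such overlap. PFKFB3 had 92.1 and 88.4 CPM in GFP untreated libraries against 93.2 to 109.2 CPM in LTR8B untreated ones, and 101.7 and 86.7 CPM in GFP IFNB against 103.3 to 109.6 CPM in LTR8B IFNB libraries. It was higher in all LTR8B libraries than in the GFP libraries of the same treatment, with small gaps. The mean difference was 0.18 ± 0.05 on the log2 scale (1.13-fold), with an edgeR adjusted p of 0.102 and a DESeq2 adjusted p of 0.0417.

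NDRG1 had 356.7 and 384.9 CPM in GFP untreated and 334.0, 325.2, 334.5 and 334.4 CPM in LTR8B untreated libraries. With IFNB it had 406.2 and 401.7 CPM in GFP and 367.9, 363.6, 391.6 and 324.9 CPM in LTR8B libraries. The LTR8B libraries were lower under both treatments, and replicate 4 was the lowest with IFNB. The mean difference was -0.16 ± 0.05 on the log2 scale, with an edgeR adjusted p of 0.106 and a DESeq2 adjusted p of 0.0455.

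VEGFA, with the values given above, was lower in all LTR8B libraries than in the GFP libraries of the same treatment. Its mean difference was -0.28 ± 0.09 on the log2 scale (95% interval -0.47 to -0.09), with an edgeR adjusted p of 0.125 and a DESeq2 adjusted p of 0.0406. Without LTR8B IFNB replicate 1, the highest of its group, the edgeR value was -0.32 with an adjusted p of 0.0436, and without the low-count filter it was -0.28 with an adjusted p of 1.36e-04. PFKFB3 and NDRG1 were thus called for the guide under 1 of the 17 alternatives each, DESeq2. VEGFA was called under 3, these being DESeq2 and the edgeR fits just given.

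HK2 was at 0.18 ± 0.06 for the mean guide difference, with an edgeR adjusted p of 0.126, and its groups overlapped with IFNB. SLC2A3 was at 66.1 and 66.0 CPM in GFP untreated and at 57.5, 57.3, 58.5 and 67.4 CPM in LTR8B untreated libraries. The last of these lay above both GFP libraries. With IFNB the transporter was at 63.0 and 68.9 CPM in GFP and at 57.8 to 62.6 CPM in LTR8B libraries. Its mean difference was -0.13 ± 0.05, with an adjusted p of 0.268. ALDOC (-0.34 ± 0.17, adjusted p = 0.340), ANKRD37 (-0.23 ± 0.15, adjusted p = 0.473) and CA9 (-0.27 ± 0.35, adjusted p = 0.777) had the widest errors.

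The third comparison asked whether the response to IFNB differed between the lines. No member and no gene at all was called for the interaction (0.0% of 16393), while 489 genes, none of them a member, had an unadjusted p under 0.05; DESeq2 and limma-voom called 0 genes too. The 5 members with the smallest p were all glycolytic enzymes: PGAM1 (0.19 ± 0.11 on the log2 scale), GPI, the isomerase of glucose 6-phosphate (0.13 ± 0.09), GAPDH (0.16 ± 0.12), PFKM (0.14 ± 0.10) and ENO1 (0.12 ± 0.10), each with an edgeR adjusted p of 0.996. For HK2 the response in LTR8B cells minus that in GFP cells was -0.09 ± 0.11 (adjusted p = 0.996), so its rise was not shown to differ between lines.

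The signs of these small values were uneven. Of the 21 genes of glucose transport and glycolysis 15 were below 0 in the GFP response and 19 above 0 in the LTR8B response, where 48.8% and 45.2% of all tested genes were above 0. For the interaction 18 of 21 were above 0, against 49.3% of all genes. GFP IFNB replicate 2 was low for 18 of these 21 genes relative to the mean of its pair. Without it 10 of 21 were below 0 in the GFP response, while 16 of 21 stayed above 0 in the interaction. Without LTR8B untreated replicate 1 the LTR8B count fell to 13 of 21.

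Replicates of the members agreed closely. The biological coefficient of variation from edgeR had a median of 6.70% over the 31 members, against 8.88% over all tested genes. It was above the trend at the same abundance for 8 members, and 31.7% of all genes were above it. PGK1 was the steadiest at 5.18%. CA9, with 41.1%, was the most variable, followed by ALDOC (15.1%) and ANKRD37 (13.0%), which are low, and by BNIP3L (10.4%) and VEGFA (10.1%), which are not.

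CA9 differed more between replicates than between groups. Its CPM was 9.98 and 14.98 in GFP untreated, 10.8 and 11.2 in GFP IFNB, 10.9, 9.17, 13.0 and 3.86 in LTR8B untreated, and 11.3, 8.36, 16.5 and 4.93 in LTR8B IFNB libraries. Replicate 4 was the lowest and replicate 3 the highest of the LTR8B libraries under both treatments. CA9 shares its span with ARHGEF39 on the other strand, which had a mean of 7.68 CPM, and as strand use in counting is not given, reads of the pair cannot be told apart.

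Genes of the lower chain, with others, shifted together in several libraries. For ALDOA, TPI1, GAPDH, PGAM1, ENO1 and PKM, a set chosen after the values were seen, all 6 lay below their group mean in GFP IFNB replicate 2, LTR8B untreated replicates 1 and 3 and LTR8B IFNB replicate 4. In LTR8B untreated replicate 1 PGAM1 (-2.07e-04) and ENO1 (-0.00752) were barely below it on the log2(CPM + 1) scale. All 6 lay above their group mean in LTR8B untreated replicate 2 and LTR8B IFNB replicates 2 and 3. They also did in GFP IFNB replicate 1, which in a group of 2 must mirror replicate 2 and is no separate case. The median shift ran from -0.12 to 0.15 on the log2(CPM + 1) scale. PGK1 and LDHA, of the same chain, followed in some libraries and not in others. In LTR8B untreated replicate 2 LDHA was at 1574 CPM beside 1716, 1625 and 1558 CPM in the other 3 libraries, and PGK1 at 788 CPM beside 812, 790.1 and 758 CPM. In LTR8B IFNB replicate 4 both were below their group mean, with LDHA at 1659 CPM against 1736 CPM and PGK1 at 783 CPM against 816 CPM, and in LTR8B IFNB replicate 3 both were above it. The shift was not particular to these 6 genes. GPI, PFKM and PFKP were also below their group mean in GFP IFNB replicate 2 and LTR8B untreated replicate 3 and above it in LTR8B untreated replicate 2. LDHB was at 821 CPM in GFP IFNB replicate 2, 866 CPM in LTR8B untreated replicate 3 and 1029 CPM in LTR8B untreated replicate 2, and the mesenchymal marker VIM at 3073, 3063 and 3826 CPM in the same libraries. In LTR8B IFNB replicate 4, where the 6 genes were low, LDHB (993 CPM) and VIM (3698 CPM) were above their group means. The part of a library-wide difference in these shifts was not tested. The summed CPM of the 21 glucose genes made up 1.53% to 1.76% of each library.

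**Figure D4:**
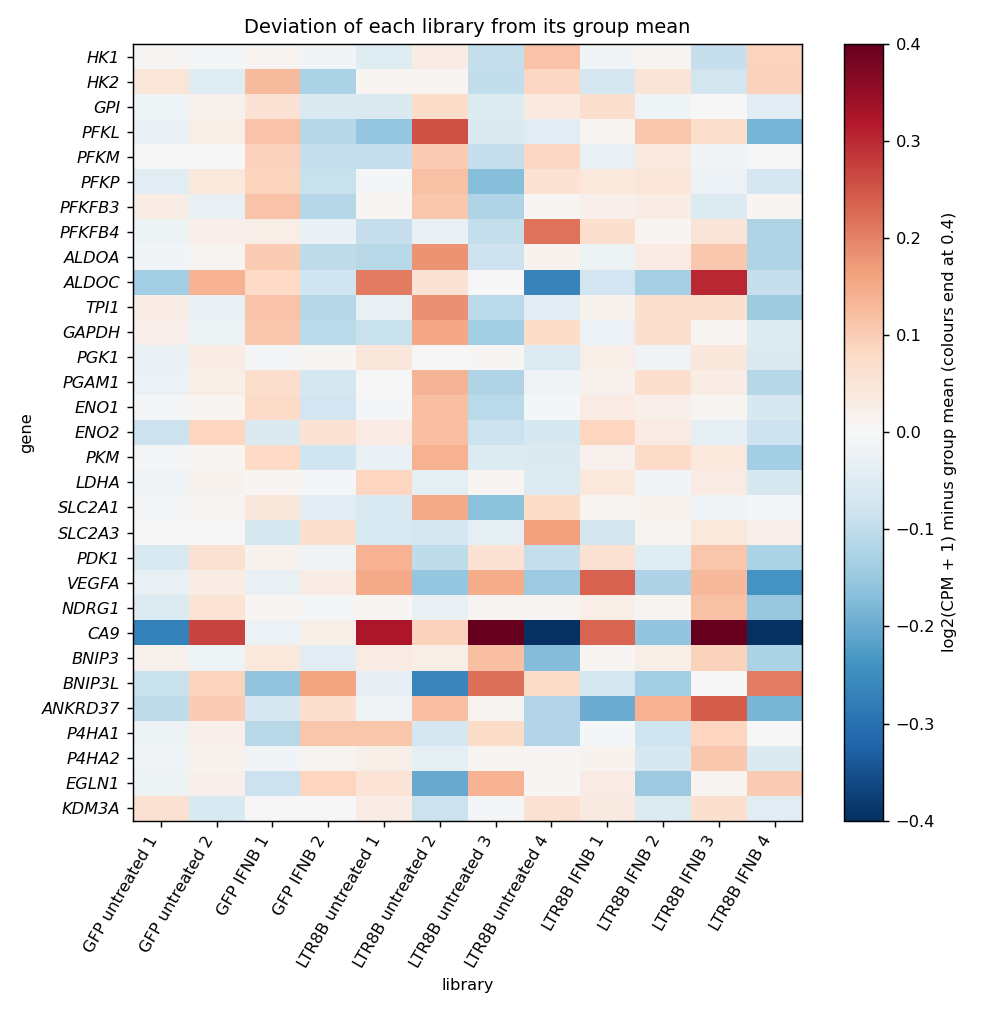
Deviation of each library (columns) from its group mean for the 31 tested genes (rows), in log2(CPM + 1), with red above and blue below the mean and colours ending at 0.4. ALDOA to PKM form bands of 1 colour in LTR8B untreated replicate 2 and GFP IFNB replicate 2, and CA9 has the strongest colours.

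The wider pathway was read through 116 further genes in 7 lists, chosen with earlier results known, of which 89 could be tested. For the mean IFNB response 5 were higher and 3 lower, for the mean guide difference 2 were higher and 2 lower, and none was called for the interaction. Over all tested genes 6.29% were called for that response and 2.14% for that difference. Of the genes called lower for the guide, CA12 passed the low-count filter only through the GFP untreated libraries, as described below. The median of the 89 was 0.00 for the mean IFNB response and 0.01 for the mean guide difference.

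In glucose and lactate transport 2 of 9 tested genes rose with IFNB. TXNIP, an arrestin-like protein that removes glucose transporters from the cell surface, had 45.5 and 58.7 CPM in GFP untreated and 131.2 and 146.2 CPM in GFP IFNB libraries. In LTR8B cells it had 50.3 to 59.7 CPM untreated and 120.1 to 143.5 CPM with IFNB. The treated and untreated libraries were far apart. TXNIP rose by 1.33 ± 0.07 on the log2 scale for the mean of both lines (2.52-fold), with an edgeR adjusted p of 2.44e-10. SLC2A12, the GLUT12 transporter, had 2.80 and 4.48 CPM in GFP untreated and 9.30 and 11.0 CPM in GFP IFNB libraries. It had 3.55 to 5.12 CPM in LTR8B untreated and 7.79 to 12.5 CPM in LTR8B IFNB libraries, and rose by 1.39 ± 0.15 (2.61-fold, adjusted p = 2.82e-06). Both were called in each line. The other 7 tested genes of glucose and lactate transport, among them the lactate exporters SLC16A1 and SLC16A3, were not called.

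Oxygen sensing was nearly flat. Of 14 tested genes CITED2 alone passed; it is induced by HIF and competes with HIF1A for the coactivators EP300 and CREBBP. CITED2 had 82.9 and 94.7 CPM in GFP untreated and 69.6 and 77.8 CPM in GFP IFNB libraries, and 98.3 to 114.2 CPM in LTR8B untreated and 85.0 to 90.4 CPM in LTR8B IFNB libraries. It fell with IFNB by 0.29 ± 0.06 on the log2 scale (edgeR adjusted p = 0.00239) and was higher with the LTR8B guide by 0.25 ± 0.06 (adjusted p = 0.0238). The guide call was lost without GFP untreated replicate 1, without GFP IFNB replicate 1, and with the block on replicate number. HIF1A, the oxygen-regulated alpha subunit, was abundant at 804.9 to 1079 CPM; its mean IFNB response was 0.16 ± 0.06 (adjusted p = 0.135). EPAS1, ARNT, VHL, EGLN2 and HIF1AN had mean IFNB responses between -0.08 and 0.06, with adjusted p of 0.388 or more. For the mean guide difference HIF1AN was at 0.12 ± 0.04 (edgeR adjusted p = 0.177). Its LTR8B libraries lay above the GFP libraries under both treatments, as for 5.6% of all genes in either direction. The guide differences of EPAS1, ARNT, VHL and EGLN2 lay between -0.05 and 0.02.

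At the entry of pyruvate into mitochondria PDP2, a phosphatase that activates pyruvate dehydrogenase, was the 1 of 11 tested genes that passed. It was at 37.3 to 38.3 CPM in GFP untreated, 32.7 to 35.5 CPM in GFP IFNB, 40.2 to 46.7 CPM in LTR8B untreated and 30.8 to 36.4 CPM in LTR8B IFNB libraries. The fall was 0.37 ± 0.07 on the log2 scale in LTR8B cells, with an edgeR adjusted p of 0.00240. In GFP cells the change was -0.15 with an edgeR adjusted p of 0.605, although the groups did not overlap in either line. The mean response was -0.26 ± 0.06 (edgeR adjusted p = 0.0108), called under 15 of 17 alternatives. The difference between lines was not called. PC, pyruvate carboxylase, was lower with the LTR8B guide, at 27.0 to 37.5 CPM against 40.9 and 47.1 CPM untreated, and at 26.3 to 36.8 CPM against 41.9 and 41.4 CPM with IFNB. Its mean difference of -0.38 ± 0.09 (edgeR adjusted p = 0.0460) kept its call under 7 of 17 alternatives. The call was lost without any 1 of the 4 GFP libraries, and with the block on replicate number. It was also lost without LTR8B untreated replicates 1, 3 or 4, or LTR8B IFNB replicates 2 or 4. None of the 8 tested other glycolytic isozymes and none of the 7 pentose phosphate genes was called in any comparison.

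**Figure D5:**
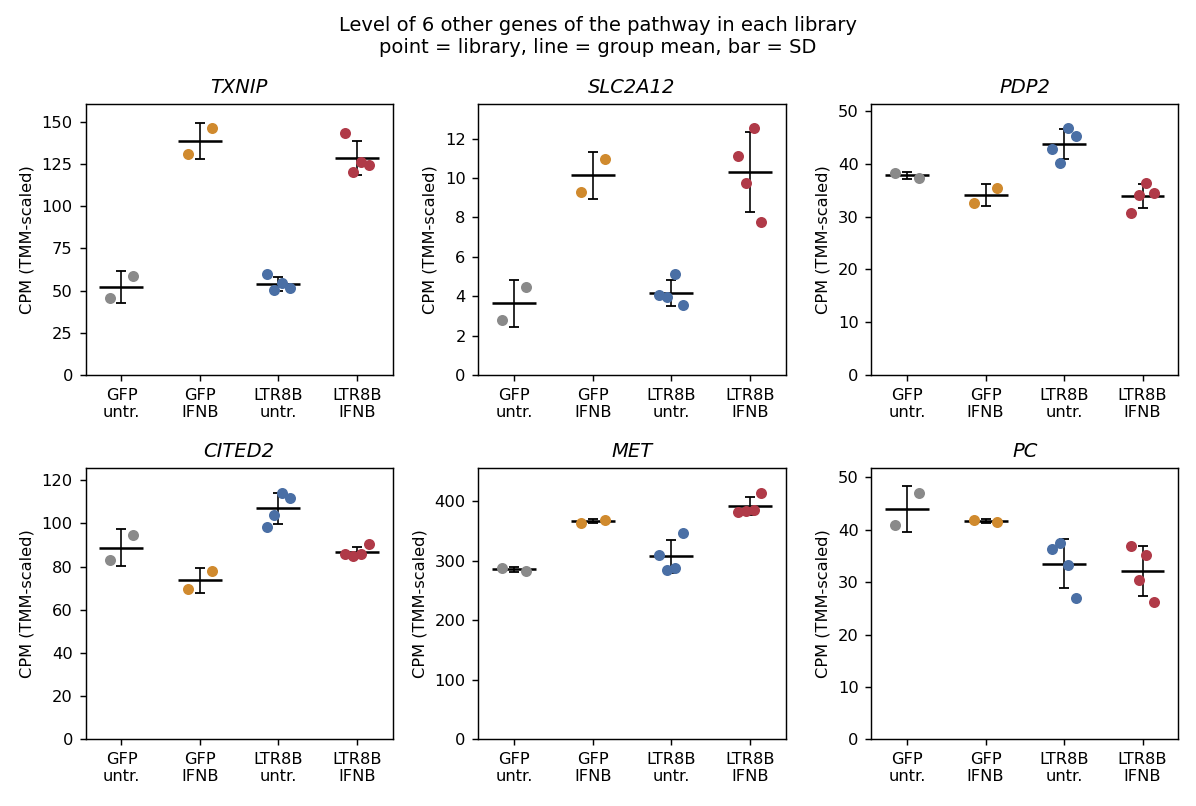
TMM-scaled CPM of 6 other genes of the pathway in each library, with the y axis from 0; points are libraries, lines group means and bars the SD. TXNIP and SLC2A12 are higher and CITED2 lower in the IFNB libraries of both lines, and PC is lower in LTR8B libraries.

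Of 32 tested further HIF targets, MET, NRN1 and WSB1 rose with IFNB and BHLHE40 fell for the mean of both lines. MET, the receptor of hepatocyte growth factor, was at 283.2 and 288.4 CPM in GFP untreated and at 364.3 and 369.7 CPM in GFP IFNB libraries. With LTR8B cells at 285.6 to 346.9 CPM untreated and 382.9 to 414.7 CPM with IFNB, the groups did not overlap. MET rose by 0.35 ± 0.05 on the log2 scale (1.28-fold, edgeR adjusted p = 1.52e-04). NRN1, a neuritin at low level, rose by 1.32 ± 0.21 for the mean (adjusted p = 3.77e-04). It was at 0.471 to 0.491 CPM in GFP untreated and 1.62 to 1.69 CPM in GFP IFNB libraries. In LTR8B cells it was at 0.773 to 1.27 CPM untreated and 1.31 to 2.03 CPM with IFNB. The rise was 1.77 ± 0.36 in GFP cells and 0.88 ± 0.23 in LTR8B cells, and the difference between lines was not called. The LTR8B call was kept under 5 of 17 alternatives. WSB1, a ubiquitin ligase subunit, rose by 0.28 ± 0.06 (adjusted p = 0.00611), with the call lost without GFP untreated replicate 1 (adjusted p = 0.0802) and without GFP IFNB replicate 2 (adjusted p = 0.0623). BHLHE40, a transcriptional repressor named after its values were seen, fell by 0.24 ± 0.06 (adjusted p = 0.0196), and lost the call without GFP untreated replicate 2 (adjusted p = 0.226) and without GFP IFNB replicate 1 (adjusted p = 0.116).

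With the LTR8B guide, STC2 and CA12 were called among these targets. STC2, a secreted glycoprotein named after its values were seen, was at 103.1 to 113.3 CPM in the 4 GFP libraries and 118.6 to 151.8 CPM in the 8 LTR8B libraries. The mean difference was 0.30 ± 0.06 on the log2 scale (adjusted p = 0.0202), and the call was lost when any 1 of the 4 GFP libraries was left out (adjusted p = 0.0697 to 0.105). CA12, a carbonic anhydrase like CA9, had only 51 counts in all. It was at 0.249 to 0.529 CPM in GFP and at 0 to 0.163 CPM in LTR8B libraries, where 3 of the 8 had no count. Its edgeR adjusted p was 0.0156. The call was lost without GFP untreated replicate 1 or 2, without GFP IFNB replicate 1, and with the block on replicate number. At so few counts no fold is given. CA12 passed the low-count filter only through the GFP untreated libraries, where it was highest. Its call therefore depends on that filter and is not read as a guide difference.

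Copies and neighbours of the members could affect their counts. Processed pseudogenes bearing a member's name held at most 0.820% of the counts of their parent, the highest share being that of LDHA. A gene on the opposite strand overlapped the span of 20 members, in part or in whole. For 6 of them it exceeded 0.1 times the member's own mean CPM: PFKM with SENP1, CA9 with ARHGEF39, ANKRD37 with UFSP2, HK2 with HK2-DT, BNIP3L with PNMA2 and P4HA2 with SLC22A4. HK2-DT shares only 7 bases with HK2. ANKRD37, at a mean of 2.56 CPM beside 16.5 CPM for UFSP2, is the member most exposed to reads from a partner.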

How the data were processed

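Polyadenylated RNA of 12 HT1080 libraries in 4 groups was measured. The authors deposited a table of whole-number counts per gene, used here, and a second table of normalized signal, in which each library's counts were divided by a single factor (0.600 to 1.46) and was used only for this check. Per the submitters' processing notes the tools were Salmon 0.13.1 and DESeq2 1.38.3 on hg38; the role of each step and the strand setting are not given in the sources used here.

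Counts were fitted for all genes with edgeR 4.0.16 in R 4.3.3 (filterByExpr at 10 counts, 15 in total, TMM, robust quasi-likelihood test, 1 mean per group over all 12 libraries, no covariate), and the fit was tested on simulated data. SE refers to the log2 fold change. Adjusted p is Benjamini-Hochberg over all 16393 tested genes, with a threshold of 0.05. CPM is TMM-scaled counts per 1e+06; RPKM divides it by merged GENCODE release 29 exon length. For groups averaged, both lines or treatments had equal weight. Symbols were found for 60370 identifiers. Total counts of 12404270 to 28801579 set the counting error; a count of 0 allows 3 counts.

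Described one by one were members past the threshold, the 5 with the smallest p for the mean guide difference, the mean IFNB response and the interaction, and HK2, PFKFB3, NDRG1 and VEGFA; from each further list, called genes, at most 4. Members, lists and this rule were chosen with earlier results of these data known. Alternatives were DESeq2 size factors, no filter, DESeq2 1.42.0, limma-voom (limma 3.58.1), a replicate block and leaving out each library; HK2-DT, STC2, BHLHE40 and the sign counts of the glucose genes were added after seeing the data. Tables were made with pandas 2.3.3 in Python 3.11.15, with SciPy 1.17.1 for intervals, and figures with matplotlib 3.10.9 and NumPy 2.4.6.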

Additional observations from a re-analysis of the deposited data

Results flagged for a closer look

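Of 62 groups of 4 libraries examined over the members, 4 held a library whose gap to the nearest other was large for the range of its group; chance flags about 1 in 20 groups. PKM was at 3205 CPM in LTR8B untreated replicate 2, above 2793 to 2858 CPM in the other 3. SLC2A3 was at 67.4 CPM in LTR8B untreated replicate 4, above 57.3 to 58.5 CPM. NDRG1 was at 325.2 CPM in LTR8B untreated replicate 2, below 334.0 to 334.5 CPM, a narrow range. ALDOC was at 2.68 CPM in LTR8B IFNB replicate 3, the shallowest library, above 1.73 to 1.84 CPM.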

How the results depend on the processing

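Of the recomputed counts of members called, 104 stayed within 1.5 times the reported one and 15 did not, and none of the values of single genes reversed. Without the low-count filter VEGFA was called for the guide with IFNB (1 member), the mean guide difference (1 member), the IFNB response of LTR8B cells (2 members with HK2) and the mean response (2 members). DESeq2 called 3 members for the mean guide difference and 2 for the mean response, with P4HA1 beside HK2. Leaving out each library gave 0 to 1 members for the mean guide difference, 0 to 1 for the response of GFP cells, 1 to 2 for that of LTR8B cells and 1 to 2 for the mean response. With the replicate block 2 members were called in LTR8B cells (HK2, VEGFA) and 3 for the mean response (HK2, P4HA1, VEGFA). The labels give the groups the same replicate numbers but do not say what these mark. LTR8B libraries of the same number deviated together with r of 0.278, 0.288, 0.0794 and 0.268 across genes, and GFP libraries with 0.146. LTR8B libraries of different numbers had r of -0.255 to 0.0875, the highest between untreated replicate 3 and IFNB replicate 4. The main fit did not take the numbers as pairs. If they mark the same culture, its tests of the mean guide difference count libraries of 1 culture as separate. The block lost CITED2, PC and CA12 for the guide. Over all genes, calls moved by over 1.5 times without the filter (325 against 59 for the guide untreated, 260 against 58 with IFNB, 775 against 351 for its mean), in DESeq2 (179, 119 and 575) and with the block (181 for the mean guide difference, 1598 against 1031 for the mean response), and leaving out a library gave 22 to 94, 21 to 69 and 93 to 461 for the 3 guide comparisons and 344 to 594 against 524 for the response of GFP cells. The interaction called 0 members under each alternative run. With 2 GFP libraries per treatment, leaving out 1 rests the GFP mean on a lone library that is assumed to vary like the other groups. Depth limits ADM and EGLN3, and ALDOC and ANKRD37 had few counts, while the error of CA9 goes with its spread between replicates; the causes of the moved calls were not tested.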
